A study of Mus musculus with 12 samples.

Results

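The Serpina3 family genes described here are Serpina3c, Serpina3g, Serpina3m and Serpina3n, 4 of the 20632 gene symbols in the count tables. They are paralogous mouse genes of the clade A3 serine protease inhibitors, and they were picked by name, with Serpina3m already seen to be lower in vehicle-treated knockouts. Reads of transcript 3' ends were counted in gonadal (peri-uterine) white fat of 12 mice, pregnant at E17.5, with 4 libraries in each of 3 groups. KO Treg are knockouts, labelled Tnfrsf11a (Rank) with Foxn1 Cre +, that received the treatment labelled Treg. KO vehicle are knockouts with the same label that received vehicle. WT vehicle are wild types, labelled Tnfrsf11a without the Cre, that received vehicle. The Foxn1 promoter drives Cre in the epithelium of the thymus and the skin and not in fat cells, so the knockout label does not speak of a deletion in the fat. The labels do not give the age or strain of the mice, or the nature, dose or timing of the treatment.

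Serpins inhibit proteases by a suicide mechanism. A flexible reactive centre loop near the end of the protein is offered to the protease as bait, and after the cut the loop snaps into the body of the serpin and drags the trapped protease with it. The bait residues of the loop set which proteases are caught. Humans have 1 gene of this kind, SERPINA3, which encodes the acute phase protein alpha-1-antichymotrypsin, whereas the mouse carries a cluster of copies with differing loops. Serpina3n is the mouse copy usually set beside the human gene; its product is secreted, inhibits granzyme B and leukocyte elastase, and is induced in inflammation and by glucocorticoids in several tissues. Serpina3g encodes Spi2A, an intracellular serpin that inhibits cysteine cathepsins and is induced in activated leukocytes. Serpina3k, a neighbour that is not among the 4, encodes contrapsin, a plasma inhibitor of trypsin-like proteases made mainly by the liver.

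The coding sequence of the reactive centre loop shows where the copies part. The sequences were read from the GENCODE M21 transcripts (GRCm38, the build named mm10), each 5' to 3' on the coding strand. The leading lower-case run is the conserved hinge of 27 bases, the capitals mark the variable bait region, and the trailing lower-case run is the conserved stretch after it. Serpina3k is shown because its annotation overlaps that of Serpina3m.
Serpina3c: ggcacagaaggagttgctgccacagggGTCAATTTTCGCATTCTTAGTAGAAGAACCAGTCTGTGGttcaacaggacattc
Serpina3g: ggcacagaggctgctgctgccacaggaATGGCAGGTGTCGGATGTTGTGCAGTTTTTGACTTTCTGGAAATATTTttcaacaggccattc
Serpina3m: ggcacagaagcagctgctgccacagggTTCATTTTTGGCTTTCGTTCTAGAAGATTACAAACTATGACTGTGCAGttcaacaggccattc
Serpina3n: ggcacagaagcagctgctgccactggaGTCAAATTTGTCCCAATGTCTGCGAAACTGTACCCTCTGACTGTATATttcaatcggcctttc
Serpina3k: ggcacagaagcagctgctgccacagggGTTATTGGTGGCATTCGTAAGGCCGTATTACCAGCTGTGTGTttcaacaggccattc
The hinge was identical at 22 to 27 of its 27 bases in every pair of these 5 genes, and at all 27 between Serpina3m and Serpina3k. The variable region was 39 bases long in Serpina3c, 42 in Serpina3k, and 48 in Serpina3g, Serpina3m and Serpina3n. Among the last 3, Serpina3m and Serpina3n shared 25 of 48 bases, Serpina3g and Serpina3n 22, and Serpina3g and Serpina3m 16. Over the whole aligned coding sequence, identity was 92.6% between Serpina3m and Serpina3k and 90.3% between Serpina3c and Serpina3m, and the other pairs of the 5 lay between 81.9% and 86.2%. The annotated coding sequence of Serpina3g was shorter, at 744 bases against 1251 to 1254 in the other 4 genes.

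All of these genes lie in one cluster on chromosome 12 (mm10). Serpina3c spans chr12:104146382-104153870 on the minus strand. Serpina3g spans chr12:104236245-104241939, Serpina3m chr12:104338486-104394257 and Serpina3n chr12:104406729-104414329, all on the plus strand. Serpina3k spans chr12:104338486-104346144 inside the Serpina3m gene model, and the first exons of Serpina3m-201 and Serpina3k-201 share 60 bases on the same strand. The library kit reads the 3' ends of transcripts, so the last 500 bases were compared. None of the 451 overlapping 50-base stretches at the end of Serpina3c, Serpina3m, Serpina3n or Serpina3k occurred exactly in a transcript of another gene. Near matches were not searched, so reads of a close copy placed with mismatches were not tested. For Serpina3g, 11 of 451 also occurred in Serpina3f, so a few of its reads could belong to that neighbour, which had 0 to 9 counts per library.

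Placental transcripts stood out in 2 libraries. The 11 trophoblast markers summed to 18.8 to 245 CPM (counts relative to the library's TMM-scaled total) in KO Treg, 14.6 to 96.2 CPM in KO vehicle and 12.8 to 29.8 CPM in WT vehicle. KO Treg 2 and KO vehicle 1 held 24.9 and 9.59 CPM of Prl3b1, where the other libraries had at most 0.75 CPM. All KO vehicle animals have numbers of a lower series, which also holds KO Treg 1 and 2 and WT vehicle 1 and 2, while the other 4 libraries have higher numbers. The labels do not call this a batch.

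Serpina3m was low in fat, and lowest in KO vehicle. It had 18, 5, 2 and 8 counts in the 4 KO Treg libraries, 2, 2, 4 and 3 in KO vehicle, and 21, 31, 14 and 58 in WT vehicle, in the order of libraries 1 to 4. In CPM this was 2.13, 0.571, 0.311 and 0.971 in KO Treg, 0.228, 0.207, 0.45 and 0.305 in KO vehicle, and 1.69, 3.32, 2.52 and 7.35 in WT vehicle. Every KO vehicle library lay below every WT vehicle library, and the KO Treg libraries spread across the gap, with 1 above the lowest WT vehicle library and 1 below the highest KO vehicle library. The log2 fold change was -3.58 ± 0.62 (SE) for KO vehicle against WT vehicle, 1.73 ± 0.69 for KO Treg against KO vehicle and -1.84 ± 0.53 for KO Treg against WT vehicle. Without KO Treg 1, which held 18 of the 33 KO Treg counts, the last 2 were 1.07 and -2.52. Serpina3m was chosen for its low level in KO vehicle, so these values are a description and no test is given.

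Counting error alone leaves Serpina3m wide. With 11 counts over the KO vehicle libraries and 124 over WT vehicle, the ratio of rates was 0.0841 (exact 95% interval 0.0409 to 0.156). For KO Treg against KO vehicle, 33 against 11 counts gave a ratio of 3.5 (1.72 to 7.67). These intervals cover counting error only, not the spread between animals. Both ratios use the low KO vehicle counts for which the gene was chosen, so neither interval is a test of a difference. A count of 3 equals 0.231 to 0.540 CPM at these depths, and 3 of the 4 KO vehicle libraries held 3 counts or fewer. The gene passed the filter on low counts through WT vehicle, the group in which it was high, and did not pass it in a fit of only KO Treg and KO vehicle. In fat taken whole, fewer cells of a type and less RNA per cell cannot be told apart.

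Serpina3n, the copy nearest in use to human SERPINA3, was at 20.4, 29.8, 36.5 and 43.8 CPM in KO Treg, 30.3, 32.9, 25.0 and 27.5 CPM in KO vehicle, and 46.0, 40.1, 33.8 and 56.0 CPM in WT vehicle. The KO vehicle libraries all lay below the WT vehicle libraries, and the KO Treg libraries were the most spread and overlapped both. Means were 32.6 ± 9.97 CPM in KO Treg, 28.9 ± 3.41 CPM in KO vehicle and 44.0 ± 9.45 CPM in WT vehicle (SD, n = 4 each). For KO Treg against WT vehicle the log2 fold change was -0.43 ± 0.20 and the edgeR adjusted p was 1 (unadjusted 0.0491). For KO Treg against KO vehicle it was 0.17 ± 0.21 (edgeR adjusted p = 0.885). The difference between KO vehicle and WT vehicle, -0.61 ± 0.20, belongs to the contrast that served to choose the family and carries no test.

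Serpina3g, the intracellular cathepsin inhibitor, had its highest mean in KO vehicle. It had 0.83, 1.03, 2.18 and 1.34 CPM in KO Treg, 4.0, 5.89, 1.24 and 4.37 CPM in KO vehicle, and 1.37, 2.04, 1.08 and 3.93 CPM in WT vehicle, from 6 to 57 counts per library. Of the KO vehicle libraries, 3 lay above every KO Treg and WT vehicle library and the other one, KO vehicle 3, was among the lower libraries of all. The log2 fold change for KO Treg against KO vehicle was -1.55 ± 0.49, which did not pass the adjustment over all genes (edgeR adjusted p = 0.356, unadjusted 0.0058). It was -0.68 ± 0.51 for KO Treg against WT vehicle (edgeR adjusted p = 1) and, with no test, 0.88 ± 0.46 for KO vehicle against WT vehicle.

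Serpina3c showed overlapping ranges in all 3 groups. It had 127, 155, 161 and 146 CPM in KO Treg, 235, 159, 157 and 183 CPM in KO vehicle, and 103, 159, 156 and 194 CPM in WT vehicle. The highest value of the 12 was in KO vehicle 1 and the lowest in WT vehicle 1. The log2 fold change was -0.32 ± 0.18 for KO Treg against KO vehicle (edgeR adjusted p = 0.651), -0.06 ± 0.18 for KO Treg against WT vehicle (edgeR adjusted p = 1) and, with no test, 0.26 ± 0.18 for KO vehicle against WT vehicle.

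**Figure D1:**
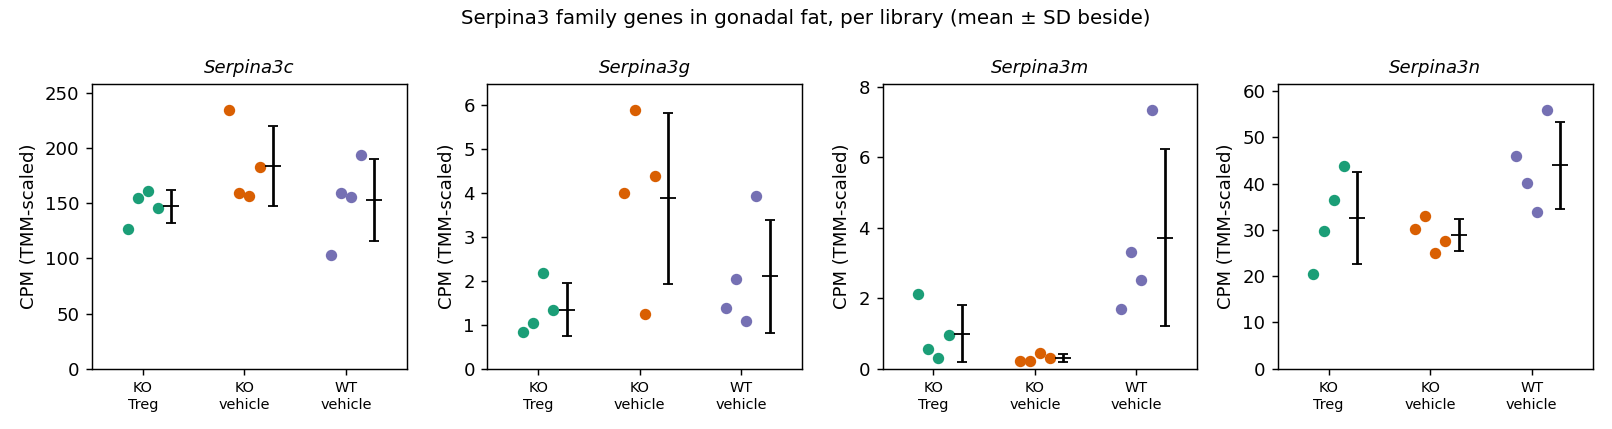
CPM on TMM-scaled totals of each family gene in each library (points, libraries 1 to 4 from left to right) with the group mean ± SD beside them, for KO Treg, KO vehicle and WT vehicle. The 4 KO vehicle points lie below all WT vehicle points for Serpina3m and Serpina3n, and 3 of 4 lie above all other points for Serpina3g.

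None of the 3 tested family genes (Serpina3c, Serpina3g and Serpina3n) passed an adjusted p of 0.05 in KO Treg against KO vehicle, a comparison in which 0.00821% of the 12175 tested genes passed. None passed in KO Treg against WT vehicle either, where 0% of genes passed (0 by edgeR, with 349 at an unadjusted p under 0.05, 1 called by DESeq2 and 0 by limma voom). In KO vehicle against WT vehicle 0.279% of genes passed. There, 2.33% of genes had every KO vehicle library below every WT vehicle library, as Serpina3m and Serpina3n did, and nothing is read from this count because that contrast served to choose the family. The tested comparisons also share libraries with that contrast, and with each other.

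Of the 6 other genes of the cluster in the files, 3 were tested. Serpina3k, the contrapsin gene, was at 109, 15.5, 34.7 and 97.6 CPM in KO Treg, 12.8, 6.20, 9.34 and 12.1 CPM in KO vehicle, and 7.24, 120, 91.3 and 77.8 CPM in WT vehicle. Every KO Treg library was above every KO vehicle library, as for 2.01% of tested genes, while WT vehicle 1 lay among the KO vehicle libraries and the other 3 WT vehicle libraries far above them. The log2 fold change for KO Treg against KO vehicle was 2.67 ± 0.85 and did not pass (edgeR adjusted p = 0.421, unadjusted 0.0111). For KO vehicle against WT vehicle it was -2.87 ± 0.85 (edgeR adjusted p = 0.192), which DESeq2 called (-2.89, adjusted p = 0.0161). For KO Treg against WT vehicle it was -0.20 ± 0.77 (edgeR adjusted p = 1).

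**Figure D2:**
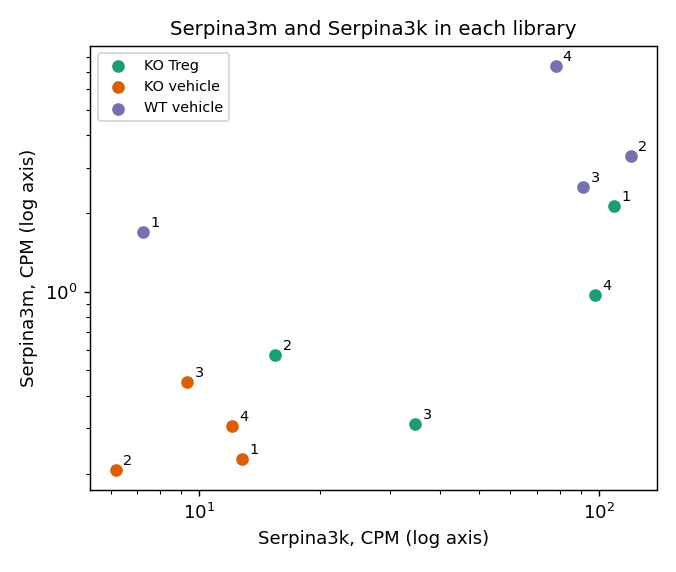
Serpina3m against Serpina3k, both in CPM on log axes, with 1 point per library, numbered within its group. KO vehicle libraries are low for both genes; WT vehicle 1, at 7.24 CPM of Serpina3k, has 1.69 CPM of Serpina3m, above all KO vehicle libraries.

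Serpina3k and Serpina3m were both low in the KO vehicle libraries, but the plot of Serpina3m against Serpina3k placed some other libraries differently. A correlation of this pair is not given. WT vehicle 1 was low for Serpina3k and above every KO vehicle library for Serpina3m. KO Treg 3 had 34.7 CPM of Serpina3k with 2 counts of Serpina3m. Reads from the 60 shared bases at the 5' end could be counted for either gene or for neither. The sources used here do not say how the authors' counting treated them.

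Serpina3a and Serpina3b sit at the other end of the cluster, next to Serpina3c. Serpina3a had 2.13, 1.48, 1.86 and 1.09 CPM in KO Treg, 9.25, 6.93, 0.675 and 3.76 CPM in KO vehicle, and 0.322, 1.18, 0.539 and 2.15 CPM in WT vehicle. As for Serpina3g, 3 KO vehicle libraries stood above all others and KO vehicle 3 did not. Its log2 fold change was 2.30 ± 0.65 for KO vehicle against WT vehicle (edgeR adjusted p = 0.157, DESeq2 2.29 with adjusted p = 0.027) and -1.64 ± 0.62 for KO Treg against KO vehicle (edgeR adjusted p = 0.465). Serpina3b ran from 3.64 to 16.3 CPM in KO Treg, 3.49 to 20.0 CPM in KO vehicle and 1.61 to 19.4 CPM in WT vehicle, with no comparison passing. Serpina3f, Serpina3i and Serpina3j were too low to be tested. Serpina3j, named after its values were seen, had 6, 1, 2 and 11 counts in KO Treg, 0, 0, 0 and 1 in KO vehicle, and 4, 15, 4 and 1 in WT vehicle.

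**Figure D3:**
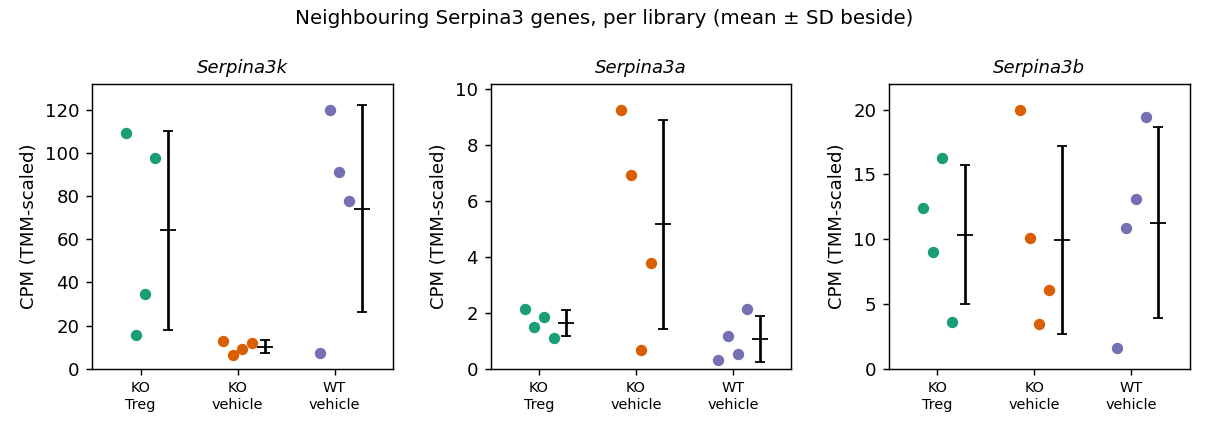
CPM on TMM-scaled totals of Serpina3k, Serpina3a and Serpina3b in each library (points) with the group mean ± SD beside them. Serpina3k is at least 15.5 CPM in KO Treg and between 6.20 and 12.8 CPM in KO vehicle; KO vehicle 3 is the low KO vehicle point for Serpina3a and Serpina3b.

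**Figure D4:**
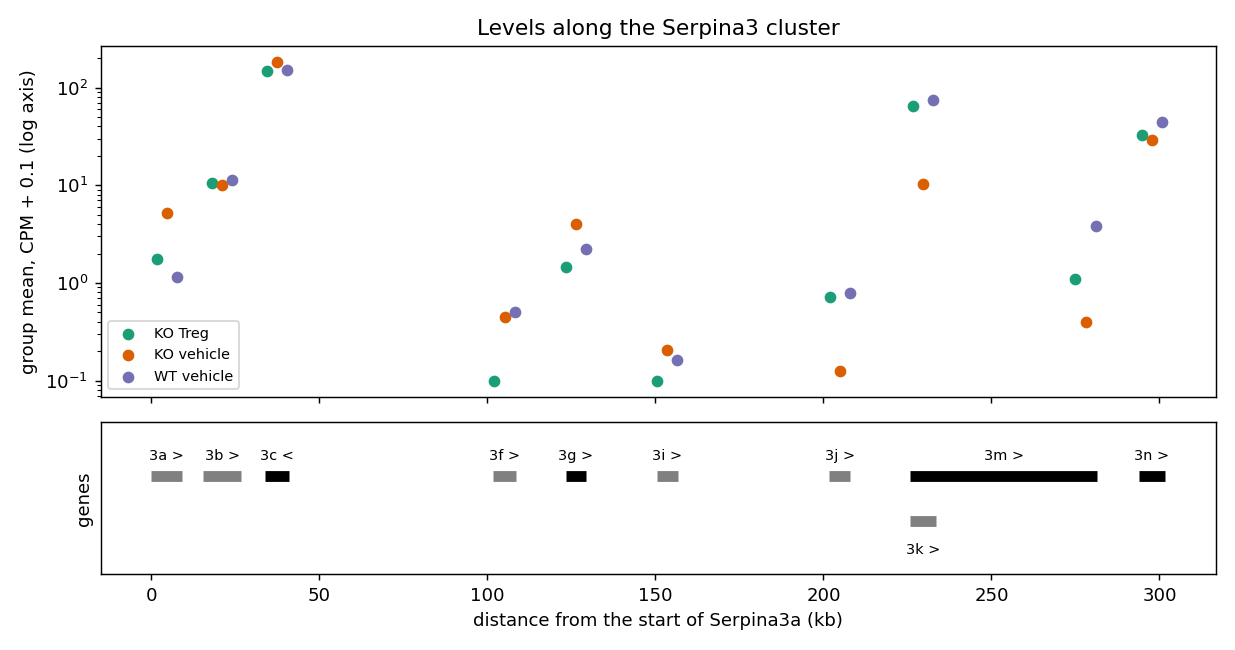
Group means of 10 Serpina3 genes (CPM + 0.1, log axis) above their positions in kb from the start of Serpina3a; black bars are the 4 family genes described here, grey bars the others, and arrowheads give the strand. Groups are to be compared within a gene; KO vehicle is the lowest group for Serpina3j, Serpina3k, Serpina3m and Serpina3n at the right end.

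In the map of levels along the cluster, the 4 genes at the Serpina3j to Serpina3n end had their lowest group mean in KO vehicle. Serpina3a, Serpina3c, Serpina3g and Serpina3i had their highest there, Serpina3b its lowest with nearly equal means, and Serpina3f its highest in WT vehicle. This pattern was seen after the values were known. Serpina3m was chosen for its low level in KO vehicle, so its place in the pattern was set beforehand. The contrast of KO vehicle against WT vehicle also served to choose the family, which holds Serpina3n. The pattern is an order of means over 4 libraries each, and most of these genes had overlapping groups.

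**Figure D5:**
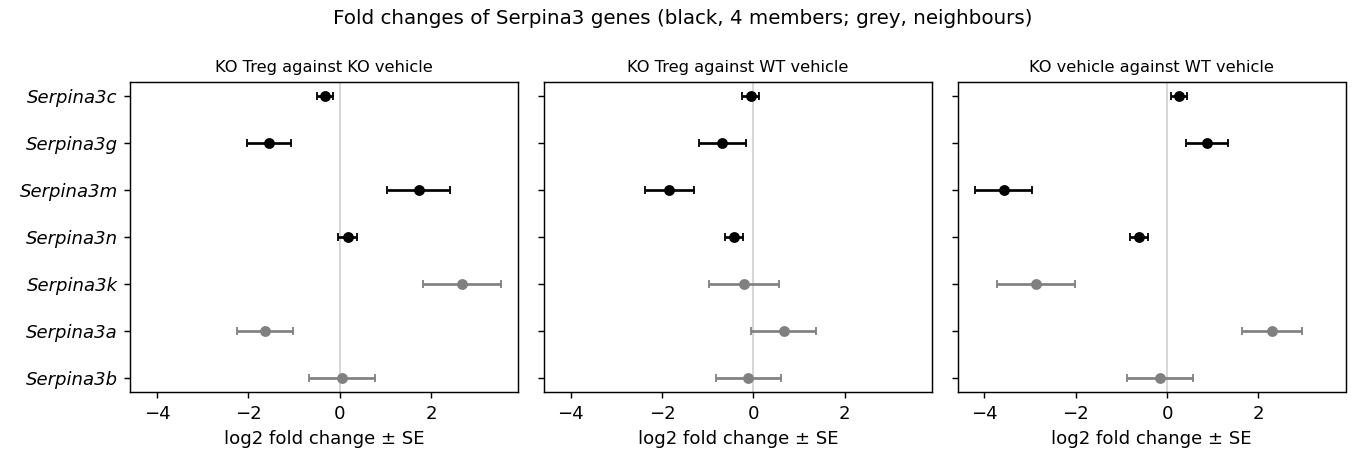
Log2 fold change ± SE of the 4 family genes (black) and 3 neighbours (grey) in each comparison, from 1 edgeR fit. Serpina3m runs from -3.58 for KO vehicle against WT vehicle to 1.73 for KO Treg against KO vehicle, and Serpina3g has the opposite signs, 0.88 and -1.55.

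The promoters of the family were compared because the genes did not vary alike. RefSeq promoters (GRCm38.p6, 250 bases before to 50 after the start) were matched for Serpina3c, Serpina3g and Serpina3n. The pair of Serpina3c (chr12:104153823-104154122, minus strand) and Serpina3n (chr12:104406458-104406757, plus strand) is printed 5' to 3' on the gene's strand, since it was the closest, with a 13-base word shared by all 3 promoters in capitals.
Serpina3c: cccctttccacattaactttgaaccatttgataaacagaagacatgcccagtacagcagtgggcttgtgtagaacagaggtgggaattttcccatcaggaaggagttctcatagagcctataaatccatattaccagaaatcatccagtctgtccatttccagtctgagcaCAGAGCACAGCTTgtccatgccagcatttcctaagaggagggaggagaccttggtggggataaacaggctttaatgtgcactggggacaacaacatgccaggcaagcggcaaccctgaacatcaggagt
Serpina3n: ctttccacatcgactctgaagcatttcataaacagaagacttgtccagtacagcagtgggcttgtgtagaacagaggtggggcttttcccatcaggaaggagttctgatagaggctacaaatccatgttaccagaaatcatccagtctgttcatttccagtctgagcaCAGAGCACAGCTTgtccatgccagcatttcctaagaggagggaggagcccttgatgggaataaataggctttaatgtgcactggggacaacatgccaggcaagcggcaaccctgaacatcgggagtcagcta
These were identical at 93.5% of 294 aligned bases, against 76.1% for Serpina3c and Serpina3g and 71.7% for Serpina3g and Serpina3n over 205. Relative to the start used, the word in capitals began at base -79 in Serpina3c, -82 in Serpina3n and 8 in Serpina3g. The Serpina3g window therefore covers a shifted stretch. Its identities and letter matches are not like for like with those of Serpina3c and Serpina3n. The word CAGAGCACAGCTT, searched on both strands, was in 7 of 32851 promoters (0.0213%), including those of Serpina3f and Serpina3i. The half-site letters of the glucocorticoid receptor, TGTTCT, were in the Serpina3c and Serpina3n windows and in 19.0% of all promoters. The STAT letters TTCNNNGAA were in the Serpina3g window and in 8.30% of promoters, and the C/EBP letters TTGCNNAA were in none of the 3 and in 10.8%. The letters TATAAA were in the Serpina3c window and in 13.6% of promoters. These are matches of letters and not sites.

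Across the 12 libraries, Serpina3c and Serpina3n, whose promoters were closest, had a Pearson r of -0.01 and a Spearman rho of 0.05 on log2 CPM (permutation p = 0.984 and 0.886). Serpina3c and Serpina3g had r = 0.64 (permutation p = 0.0212) and rho 0.73 (permutation p = 0.00932), and r = 0.72 without the 2 libraries farthest from the median of Serpina3c. Adjusted over all 6 pairs these p-values were 0.127 and 0.0559, and adjusted over the 3 pairs without Serpina3m they were 0.0636 and 0.028, so only rho passed, and only over 3 pairs. Serpina3g and Serpina3n had r = 0.25 and rho 0.26 (permutation p = 0.437 and 0.415). On residuals from the group means, the order of these pairs differed. Serpina3g and Serpina3n then had r = 0.66 (permutation p = 0.0186, adjusted 0.112 over 6 pairs and 0.0559 over 3), Serpina3c and Serpina3g 0.50 (permutation p = 0.0942) and Serpina3c and Serpina3n 0.28 (permutation p = 0.374). The residuals were shuffled over all 12 libraries and not within groups. This ignores the fitted group means, so the p-values on residuals may be too small.

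Pairs with Serpina3m are given with no p, since its level in KO vehicle chose it. Serpina3m had r = 0.48 with Serpina3n, -0.23 with Serpina3c and -0.28 with Serpina3g, and rho 0.45, -0.27 and -0.50. On residuals from the group means r was -0.22, 0.19 and -0.03 in the same order. Without the 2 farthest libraries, r was 0.07 for Serpina3m and Serpina3n, 0.09 for Serpina3c and Serpina3m, 0.05 for Serpina3g and Serpina3m, 0.57 for Serpina3c and Serpina3n and 0.51 for Serpina3g and Serpina3n. The libraries left out were those farthest from the median of the first-named gene only, so they can differ between pairs. Among the 8 libraries of the lower numbers, r was 0.62 for Serpina3c and Serpina3g, -0.23 for Serpina3c and Serpina3n, 0.22 for Serpina3g and Serpina3n, -0.62 for Serpina3c and Serpina3m, -0.61 for Serpina3g and Serpina3m and 0.24 for Serpina3m and Serpina3n; the higher numbers hold 4 libraries, too few for a value.

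The genes most like each member over the 12 libraries, among 9627 or 9628 tested genes with a mean of at least 5 CPM, are given by Pearson r as a description with no p. Nearest to Serpina3c were Efnb1, an ephrin ligand (0.93), Car4, a carbonic anhydrase (0.93), Sept11, a septin (0.91), Notch1, a cell surface receptor (0.91), and Psat1, an enzyme of serine synthesis (0.90). Nearest to Serpina3g were Panx1, a membrane channel (0.92), Iffo2 (0.88), the kinase gene Map3k3 (0.88), and the endoplasmic reticulum chaperones Hsp90b1 (0.88) and Hspa5 (0.87). Nearest to Serpina3m were the aminopeptidase gene Npepps (0.94), Fmo1, a flavin monooxygenase (0.92), and Mrps18a, Angpt1 and Tmem38a (0.90 each). Within groups, Npepps kept r = 0.90 with Serpina3m while Fmo1 had 0.58 and Tmem38a 0.46. Serpina3n had Dolk as its nearest gene (0.85), followed by Ecsit and Rabif (0.79 each) and Aup1 and Mycl (0.78 each).

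Serpins outside the cluster were given by a list. Of the 28 serpins of clades B to I, 10 were tested and none was called, where at most 0.279% of all tested genes were called in any comparison. Their median log2 fold change was -0.33 in KO Treg against KO vehicle (1 above 0 and 9 below), 0.07 in KO Treg against WT vehicle (6 and 4) and 0.29 in KO vehicle against WT vehicle (8 and 2), where the median of all tested genes was 0.00 each time. Serpinh1, the collagen chaperone, was at 593 ± 102 CPM in KO Treg, 819 ± 102 CPM in KO vehicle and 594 ± 53.7 CPM in WT vehicle (edgeR adjusted p = 0.356 for KO Treg against KO vehicle). Serping1, the C1 inhibitor, had a log2 fold change of -0.13 ± 0.19 in the same comparison, and Serpinb6a -0.39 ± 0.16 (edgeR adjusted p = 0.481). Of the other clade A genes only Agt, which encodes angiotensinogen, was tested, at 225 ± 54.6 CPM in KO Treg, 148 ± 36.5 CPM in KO vehicle and 264 ± 89.7 CPM in WT vehicle, with no comparison passing (lowest edgeR adjusted p = 0.18).

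Of 30 proteases of the kinds that serpins inhibit, 17 were tested. In KO Treg against KO vehicle 12 were above 0 and 5 below, with a median of 0.10. In KO Treg against WT vehicle 7 were above 0 and 10 below, with a median of -0.08. None was called in either. Of all tested genes, 0.00821% and 0% were called in these comparisons, and 0.279% in KO vehicle against WT vehicle. In KO vehicle against WT vehicle 6 were above 0 and 11 below, with a median of -0.36, and Htra3, a secreted serine protease, rose, at 447 ± 127 CPM in KO vehicle and 184 ± 7.97 CPM in WT vehicle (log2 fold change 1.28 ± 0.19, edgeR adjusted p = 0.0198). Leaving out 1 library ended that call for KO vehicle 1 (edgeR adjusted p = 0.0623), KO vehicle 2 (0.0501) and WT vehicle 3 (0.0646), as did the number series as a covariate (0.0582) and the lower series alone (0.193), while the log2 fold change stayed at 1.11 or more in each. Ctsb and Ctsl, cysteine cathepsins of the kind that Serpina3g inhibits, had log2 fold changes of -0.11 ± 0.14 and 0.02 ± 0.19 in KO Treg against KO vehicle, and 0.08 ± 0.14 and 0.21 ± 0.19 in KO vehicle against WT vehicle.

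No gene of 3 lists of signals known to induce Serpina3 genes was called in any comparison. Of all 12175 tested genes, 0.00821% were called in KO Treg against KO vehicle, 0% in KO Treg against WT vehicle and 0.279% in KO vehicle against WT vehicle. With shares this low, nothing is read from the absence of calls in the lists. Acute phase and STAT3-responsive genes (20 of 29 tested) had medians of -0.16 in KO Treg against KO vehicle (5 above 0 and 15 below), -0.32 in KO Treg against WT vehicle (2 and 18) and -0.10 in KO vehicle against WT vehicle (7 and 13). Haptoglobin (Hp) was at 343 ± 91.5 CPM in KO Treg, 420 ± 99.2 CPM in KO vehicle and 619 ± 372 CPM in WT vehicle, and Lrg1 at 175 ± 51.5 CPM, 303 ± 86.6 CPM and 262 ± 82.5 CPM in KO Treg, KO vehicle and WT vehicle. Stat3 itself was at 157 ± 11.8 CPM, 172 ± 21.2 CPM and 174 ± 14.7 CPM in the same order. Glucocorticoid-responsive genes (21 tested) had medians of 0.09 (12 above 0 and 9 below), -0.17 (6 and 15) and -0.24 (7 and 14) in the same order of comparisons. In KO vehicle against WT vehicle, the 3 of highest mean level did not move one way: Angptl4, an inhibitor of lipoprotein lipase, had a log2 fold change of 0.64 ± 0.19 (edgeR adjusted p = 0.166), Klf9, a transcription factor, -0.54 ± 0.14 (edgeR adjusted p = 0.117), and Mt1, a metallothionein, -0.32 ± 0.19 (edgeR adjusted p = 0.542). Interferon gamma-responsive genes (23 of 24 tested) had medians of -0.14 (7 and 16), -0.02 (11 and 12) and 0.00 (12 and 11), and in KO Treg against KO vehicle Ifngr1 had -0.22 ± 0.18, Irf1 -0.12 ± 0.12 and Gbp7 0.06 ± 0.14.

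The tissue label and the other cells that could hold these transcripts were checked by marker genes. Library totals ran from 5551967 to 12972655 counts. The 10 adipocyte markers summed to 74125 to 101286 CPM in KO Treg, 72374 to 93034 CPM in KO vehicle and 87712 to 107211 CPM in WT vehicle. Much of each sum was Cfd, with a mean of 26178 CPM in KO vehicle and 46723 CPM in WT vehicle, and Fabp4, with 32285 and 27265 CPM. In KO vehicle against WT vehicle, 5 of the 10 markers were above 0 and 5 below, with a median log2 fold change of 0.03. The liver makes much of the plasma Serpina3 proteins, and the 10 hepatocyte markers summed to 196 to 373 CPM in KO Treg, 168 to 281 CPM in KO vehicle and 301 to 537 CPM in WT vehicle. Nearly all of this was Cyp2e1. Fgb was 0 in all 12 libraries, Alb was between 1.13 and 10.8 CPM, highest in KO Treg 4, and Ttr was at most 0.228 CPM. Mean Alb was 6.72 CPM in KO Treg, 4.67 CPM in KO vehicle and 2.99 CPM in WT vehicle, an order unlike that of the sums. The part of liver transcripts in the values of Serpina3m and Serpina3k was not tested. Of the 10 pancreatic acinar markers, 5 were 0 in every library and the sums were 22.4 to 33.9 CPM, 23.8 to 27.1 CPM and 16.5 to 40.9 CPM in KO Treg, KO vehicle and WT vehicle. Cela1 made up nearly all of these sums, at 22.3 to 33.9 CPM, 23.6 to 27.1 CPM and 16.5 to 40.9 CPM. Macrophage markers, the 11 in the files, summed to 842 to 1269 CPM in KO Treg, 972 to 1290 CPM in KO vehicle and 881 to 1054 CPM in WT vehicle. The 11 T and B cell markers summed to 4.15 to 7.19 CPM, 4.57 to 15.7 CPM and 3.05 to 12.4 CPM in the same order. The part of these immune cells in the values of Serpina3g was not tested. Stromal progenitor markers summed to 2258 to 3140 CPM in KO Treg, 1877 to 2200 CPM in KO vehicle and 1959 to 3734 CPM in WT vehicle, and mesothelial markers to 89.8 to 196 CPM, 88.4 to 143 CPM and 92.2 to 190 CPM in the same order. Uterine epithelial and ovarian markers summed to at most 51.6 and 42.4 CPM in any library. Tnfrsf11a had 44 to 90 counts in every library and Foxn1 0, which checks nothing about a deletion by Foxn1 Cre.

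Without KO Treg 2 and KO vehicle 1, which hold the placental transcripts, the log2 fold change of Serpina3c was -0.20 for KO Treg against KO vehicle and 0.12 for KO vehicle against WT vehicle, that of Serpina3g for KO Treg against KO vehicle was -1.43, that of Serpina3m for KO vehicle against WT vehicle was -3.49, and that of Serpina3k for KO Treg against KO vehicle was 3.13. This setting was not planned and was added after the placental transcripts were seen.

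Within the lower number series, Serpina3m had log2 fold changes of -3.02 for KO vehicle against WT vehicle and -0.87 for KO Treg against WT vehicle. Serpina3g had -2.03 for KO Treg against KO vehicle, Serpina3n -0.18 for KO Treg against KO vehicle and -0.77 for KO Treg against WT vehicle, and Serpina3c -0.36 for KO Treg against KO vehicle and 0.11 for KO Treg against WT vehicle. No tested family gene passed there (edgeR, lowest adjusted p = 0.555).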

How the data were processed

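Gonadal fat RNA was extracted with a column kit including DNase digestion and turned into QuantSeq libraries, which read transcript 3' ends, per the labels' protocols. Each count is therefore a read near a transcript's end and was not scaled by gene length. The submitters' processing notes name BWA 0.7.12, SAMtools 1.3.1, TopHat2 2.1.1, HTSeq 0.6.1 and the build mm10. The sources used here do not give the tools' roles, the annotation or the treatment of strand, so reads of overlapping antisense genes cannot be told apart. In GENCODE M21, no exon of the Serpina3 genes described here overlapped an exon on the other strand. The values deposited by the authors are raw read counts for each gene symbol, in 1 table per library. Replicates are taken as 1 animal each from the library names, and p-values measure only the spread between them.

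Genes were kept by filterByExpr (12175 of 20632), scaled by TMM and fitted with the edgeR 4.0.16 quasi-likelihood test (robust, 3 groups in 1 fit, R 4.3.3), with Benjamini-Hochberg adjustment and a threshold of 0.05. CPM used TMM-scaled totals, and log2 CPM a prior count of 2. The SE is the size of the log2 fold change divided by the square root of F. Correlations used 100000 permutations (SciPy 1.17.1). Sequences came from GENCODE M21 and RefSeq GRCm38.p6 and were aligned with Biopython 1.88. The fit was tested on simulated counts with known changes. These changes were given only to genes with a mean above 5 CPM, which Serpina3g and Serpina3m did not reach. Alternatives were other scalings and filters, DESeq2 1.42.0, voom in limma 3.58.1, 2-group fits, the number series as a covariate or the lower series alone, and leaving out each library. A fit without the libraries with placental transcripts was not planned and was added later. Members and lists were chosen with earlier results of these data known. Named genes are the members and, of each list, the called genes and the 3 of highest mean CPM, of which the text gives some, plus the 5 most alike genes of each member.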

Additional observations from a re-analysis of the deposited data

How the results depend on the processing

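The 12 fold changes of the family genes were recomputed in 275 alternatives, of which 270 kept the direction. The alternatives include the unplanned fit without the libraries with placental transcripts. Of the 6 fold changes that carry a test, none passed the threshold in any of 138 alternatives. The lower number series alone moved Serpina3m in KO Treg against WT vehicle to -0.87 on the log2 scale and gave 0.11 for Serpina3c in that comparison, where leaving out 1 library ranged from -0.21 to 0.08. Serpina3n in KO Treg against KO vehicle was -0.18 in the lower series and -0.04 with the series as a covariate. The cause was not tested. Serpina3g in KO Treg against KO vehicle stayed between -2.03 and -1.26, with a lowest adjusted p of 0.181 (DESeq2). Serpina3m for KO vehicle against WT vehicle stayed between -3.85 and -3.01. Leaving out 1 library gave 1.07 to 2.01 for KO Treg against KO vehicle, and -2.52 to -1.28 for KO Treg against WT vehicle. It did not pass the filter in a fit of only KO Treg and KO vehicle, so that alternative gave no value.

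Alternatives for the neighbours were added after seeing the data. Serpina3k in KO Treg against WT vehicle was 0.12 without the libraries with placental transcripts, and -0.59 to 0.14 leaving out 1 library. With the series as a covariate Serpina3b was -0.23, 0.03 and 0.25 in KO Treg against KO vehicle, KO Treg against WT vehicle and KO vehicle against WT vehicle, and 0.81 and 0.67 for the last 2 in the lower series. Leaving out 1 library it ranged from -0.22 to 0.65, -0.50 to 0.32 and -0.75 to 0.26 in the 3 comparisons. Pearson r on residuals from the group means was 0.19 for Serpina3c and Serpina3m, 0.28 for Serpina3c and Serpina3n and -0.22 for Serpina3m and Serpina3n. Without the 2 farthest libraries it was 0.09 for Serpina3c and Serpina3m, 0.57 for Serpina3c and Serpina3n and 0.05 for Serpina3g and Serpina3m. Over all genes, the number called in KO Treg against KO vehicle, KO Treg against WT vehicle and KO vehicle against WT vehicle was 1, 0 and 34 by edgeR, 54, 1 and 250 by DESeq2, and 1, 0 and 44 by limma voom. DESeq2 also called Serpina3k (-2.89) and Serpina3a (2.29) in KO vehicle against WT vehicle, which edgeR did not. Counts of 2 to 4 per KO vehicle library limit Serpina3m. No paired analysis was possible because the labels give the groups no shared replicate numbers.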
